A study of Mus musculus with 4 samples.

Results

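The mRNAs of cytoskeleton proteins and motor proteins were examined in mouse liver RNA-Seq data. Members were the genes of the deposited table whose symbol begins as that of a kinesin (Kif), myosin (Myo), cytoplasmic dynein subunit (Dync), tubulin (Tuba, Tubb, Tubg), actin, actin-related protein or actinin (Act), spectrin (Spna, Spnb, Sptan, Sptbn), filamin (Flna, Flnc and the like), plakin (Plec, Macf1, Dst) or ankyrin (Ank), leaving out Tubgcp. The rule found 50 members among 7000 listed mRNAs, 0.714% of the table. It rests on names alone, not on any measured value. The gene annotation holds 129 protein-coding genes that match it, of which 79 were not listed, among them Kif5b, Kif11, Myo1c, Dst, Actr2, Actr3, Flnc, Ank1 and Ank2. The table is ordered by the p-value of its own diet comparison and not by level, so a gene that is not listed may still be expressed. Only genes above 1 CPM in at least 3 of the 4 libraries entered it, which sets the floor under the lowest levels given here. By family, the table listed 13 of 42 annotated kinesins, 12 of 25 myosins, 4 of 7 dynein subunits, 7 of 18 tubulins, 3 of 6 actins, 3 of 11 actin-related proteins, 1 of 4 actinins, 2 of 7 spectrins, 2 of 3 filamins, 2 of 3 plakins and 1 of 3 ankyrins.

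The livers came from male wild-type FVB/N mice that were put on a selenium-deficient base diet at weaning. For 6 weeks, 2 mice (1 and 2) received this diet with 0 ppm selenium and 2 mice (4 and 5) received it with 0.1 ppm selenium as sodium selenite. All 4 mice shared the strain, the sex, the base diet and the time on it. The values used here are one mean level for each mRNA over all 4 libraries, so that no value of a single mouse, no error between mice and no difference between the diets could be given, and every comparison below is a description of levels between genes, with no test.

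Actin filaments and microtubules are the polymers that give a hepatocyte its shape, its bile canaliculi and its tracks for transport. Myosins move along actin filaments. Kinesins and dynein move along microtubules, most kinesins toward the plus end and dynein toward the minus end. Spectrins, filamins, plakins, actinins and ankyrins tie filaments to each other or to membranes, and plakins, spectrins and filamins are among the large proteins of the cell.

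The level of an mRNA is given as its mean CPM, the share of the counted reads that fell on it, scaled to a common total, or as log2 of this, and levels of different genes are compared per kilobase of mRNA (CPM per kb). The member mRNAs were long. Their median length was 5197 bases, against 2951.5 bases for the 6950 other listed mRNAs, and 36 of the 50 were longer than that median. They ran from 1562 bases in Tuba1b to 23495 bases in Macf1, the longest mRNA of the whole table. Of 160 listed mRNAs above 10 kb, 6 were members: Macf1, Plec, Dync1h1, Myo5a, Kif1b and Ank3. When all listed mRNAs were ranked by length and divided into 20 classes, 27 members (54%) fell into the 5 longest classes, which hold 25% of the table, and 11 fell into the longest.

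Against other mRNAs of the same length class, the members were spread from one end of the range to the other. The median member stood 0.40 above its class median in log2 mean CPM, and 28 of 50 members (56%) were above it. Above percentile 75 of their class, where 25% of the other mRNAs lie, stood 17 of 50 members, and below percentile 25 stood 12. Above percentile 90, where 10% of the others lie, stood 6, and below percentile 10 stood 9. Levels under 2 CPM were found for 7 members (14%), compared with 7.05% of other listed mRNAs. Levels over 100 CPM were found for 10 members (20%), compared with 13.3%. Members of one family could lie far apart. The difference ran from -4.52 to 2.78 in kinesins, from -2.49 to 5.34 in actins and from -4.71 to 1.77 in spectrins. Grouped by role, the 10 actins and tubulins had a median level of 22.4 CPM per kb and a median 1.19 above their length class. This level is uncertain, since 5 of the 10 share much of their sequence with other genes, as described below. Per 1000 unique windows, also defined below, the tubulin median was 38.7 CPM, against 14.6 CPM per kb. For actins the 2 values were 46.5 and 41.5 CPM, both those of Actg1, while Actb was at 809 and 449 CPM. The 8 linkers had 7.83 CPM per kb, and their median was also 1.19 above the class. The 29 motor proteins had 2.85 CPM per kb and a median of -0.42, with 12 of 29 above their class.

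**Figure D1:**
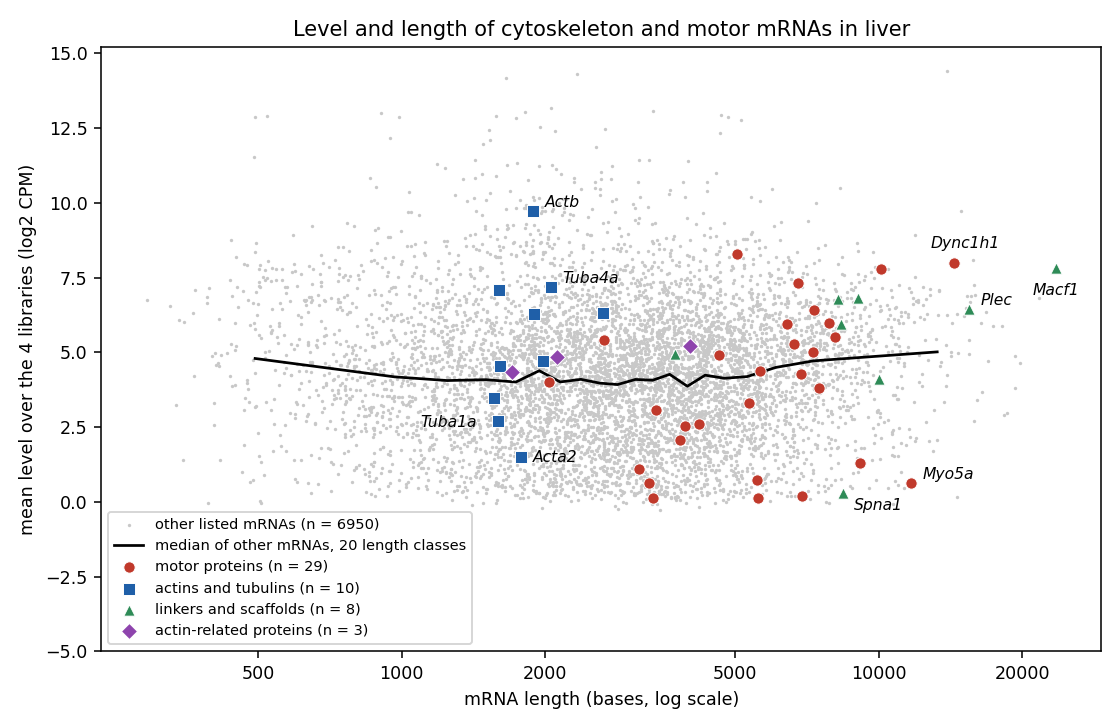
Mean level over the 4 libraries (log2 CPM) against mRNA length (bases, log scale) for the 50 members, coloured by role, and the 6950 other listed mRNAs in grey; the line joins the medians of the other mRNAs in 20 length classes. Actb lies far above the line for its length, and Acta2, Spna1 and Myo5a far below it.

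A few mRNAs carried most of the signal. The highest member, Actb, lay 3361 times above the lowest, Myo5a, in CPM per kb, and 6020 times per unique windows (the windows of the mRNA that no other gene shares). The 3 actins made up 47.8% of the summed level per kb of all members and the 7 tubulins 21.8%. Actb alone held 43.6%. The 12 myosins held 10.1%, the 13 kinesins 6.54% and the 4 dynein subunits 4.67%. Per unique windows, a divisor chosen after seeing the data, the shares of actins and tubulins were 57.5% and 21.4%. Counted as CPM without division by length, which favours long mRNAs, the shares of actins and tubulins were 26.1% and 12.0%, while myosins held 17.3%, kinesins 14.3% and the 2 plakins 8.89%.

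**Figure D2:**
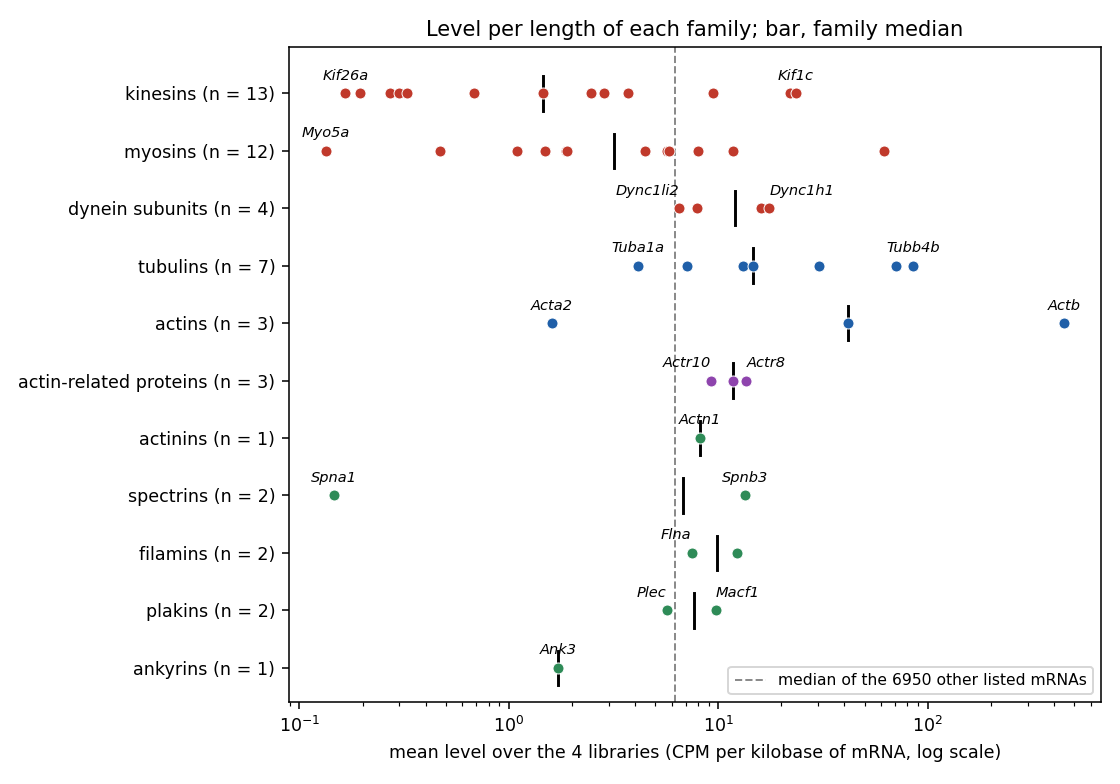
Mean level over the 4 libraries in CPM per kb (log scale) of each member, by family; each point is 1 mRNA, the black bar is the family median and the dashed line the median of the other listed mRNAs, 6.19 CPM per kb. The line pools all lengths. By length class, the median of the other mRNAs was 43.6 CPM per kb in the shortest class and 3.38 in the longest. The ends of most families are named, and kinesins and myosins cover the widest ranges beside actins and spectrins.

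Only reads that aligned to a single mRNA were counted, so the actin and tubulin families were first compared in sequence. The ends of the actin coding sequences are shown because they are nearly alike between genes. The last 60 coding bases, stop codon included, are given 5′ to 3′ from the mRNA, with capitals where a base differs from Actb.
Actb: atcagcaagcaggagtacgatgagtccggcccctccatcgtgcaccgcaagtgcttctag
Actg1: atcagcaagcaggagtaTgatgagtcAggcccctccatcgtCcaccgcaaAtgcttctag
Acta2: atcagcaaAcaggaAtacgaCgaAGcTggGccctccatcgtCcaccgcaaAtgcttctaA
These stretches lie in the last exon of each gene on the minus strand, at chr5:143665477-143665536 for Actb (exon 6), chr11:120207704-120207763 for Actg1 (exon 6 of that transcript) and chr19:34316157-34316216 for Acta2 (exon 9), in GENCODE vM1 on NCBIM37, the assembly also known as mm9. Actg1 differed from Actb at 4 of the 60 bases and at no amino acid, and Acta2 at 10 bases and 1 amino acid. Over the whole coding sequence, Actg1 was 88.7% identical to Actb in bases and 98.9% in encoded amino acids, and Acta2 83.0% and 93.9%.

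The 3 Tuba1 genes were closer to each other in bases. Over the coding sequence, Tuba1a and Tuba1c were 98.3% and 98.0% identical to Tuba1b in bases, and Tuba4a 85.5%. The 3 near-identical genes are neighbours within 107 kb of chromosome 15.

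To measure what such likeness leaves for counting, each mRNA was divided into all its windows of 50 bases, the read length, and a window was taken as unique when no other gene's mRNA held it with up to 2 mismatches, the number the alignment allowed. The median member was unique over 100% of its windows, and 45 of 50 were unique over at least 90%. The 5 others were Tuba1a with 21.7%, Tuba1b with 24.4%, Tuba1c with 34.4%, Tubb2a with 39.5% and Actb with 56.0%. Tuba1a shared 76.0% of its windows with Tuba1b and 72.8% with Tuba1c. Tubb2a shared 60.4% with Tubb2b, which was not listed. Actb shared most, 39.9% (746 of 1871 windows), with the mRNA of Lrrc58, which holds an Actb-like stretch at its bases 2367 to 3979, after the end of its coding sequence at base 1208. It shared 8.44% with Actg1. Requiring an exact match, Actb was unique over 88.2% of its windows and Tuba1a over 42.9%. The levels of these 5 mRNAs in CPM per kb are therefore uncertain, and are also given per 1000 unique windows.

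Actb, cytoplasmic beta actin, was the highest member at 848 CPM, or 449 CPM per kb. This was 5.27 times the next member per kb and 9.01 times per unique windows, and its log2 level was 5.34 above its length class. Actg1, cytoplasmic gamma actin, which polymerises with beta actin in the same cells, was at 78.5 CPM and 41.5 CPM per kb, so that Actb stood 10.8 times higher per kb and 17.4 times higher per unique windows (809 against 46.5 CPM). Acta2, the smooth muscle alpha actin that also marks activated stellate cells, was at 2.86 CPM and 1.60 CPM per kb, with a log2 difference from its class of -2.49. Among actins the order was thus Actb, Actg1, Acta2 by either divisor.

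Among tubulins, the subunits of microtubules, the beta tubulin Tubb4b was the highest at 136 CPM and 85.1 CPM per kb, followed by the alpha tubulin Tuba4a at 145 CPM and 70.4 CPM per kb. Tubb5, a beta tubulin found in most tissues, had 80.0 CPM and 30.3 CPM per kb. Tubb2a, a further beta tubulin, had 23.5 CPM and 14.6 CPM per kb. Tuba1a, the alpha tubulin best known from developing neurons, was the lowest of the family at 6.55 CPM and 4.11 CPM per kb. Between these lay Tuba1c at 13.1 and Tuba1b at 7.08 CPM per kb. Per 1000 unique windows, Tubb4b and Tuba4a hardly moved (89.8 and 73.2 CPM), while Tuba1c came to 39.1, Tubb2a to 38.7, Tuba1b to 26.8 and Tuba1a to 18.9 CPM. In the order of all 50 members, Tuba1b went from place 25 to place 9 and Tuba1a from 31 to 12. The gap between Tubb4b and Tuba1a, the ends of the family, narrowed in step. All 7 tubulin genes had 4 exons.

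**Figure D3:**
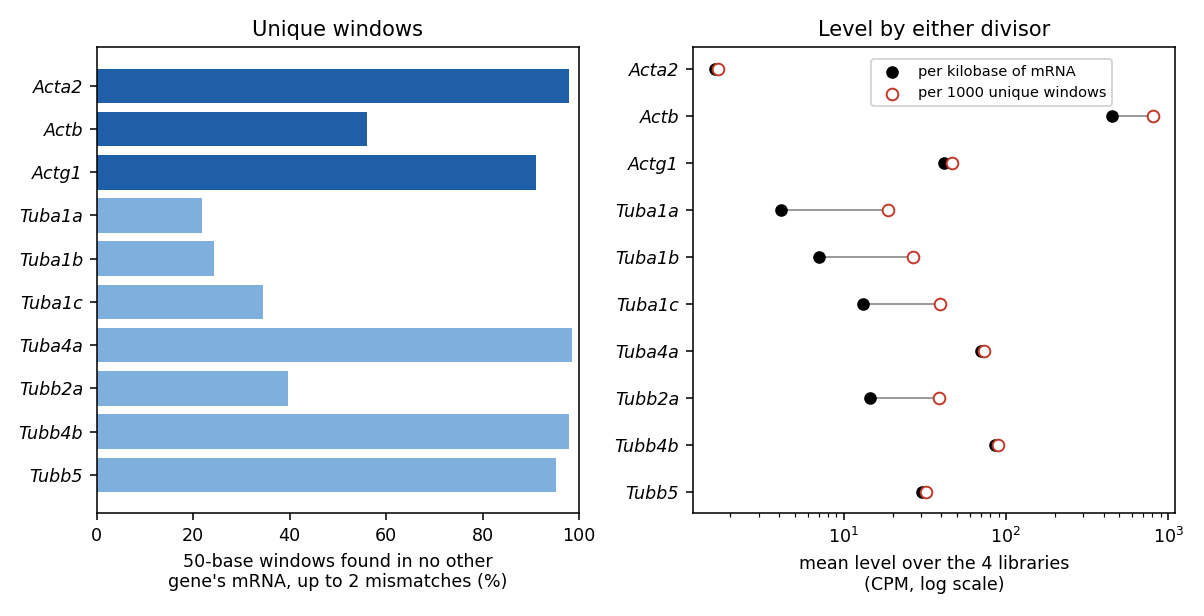
Left, percentage of 50-base windows of each actin (dark bars) and tubulin (light bars) mRNA that no other gene's mRNA holds with up to 2 mismatches. Right, mean level over the 4 libraries (CPM, log scale) per kilobase of mRNA (filled points) and per 1000 unique windows (open points); the points lie far apart for Tuba1a, Tuba1b, Tuba1c and Tubb2a and close together for Tuba4a, Tubb4b and Tubb5.

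Kinesins, most of which carry cargo toward microtubule plus ends, formed the largest family and had a median of 1.46 CPM per kb, or 3.72 for the 7 with at least 5 CPM. The highest were Kif1c at 158 CPM (23.4 CPM per kb) and Kif1b at 222 CPM (22.0 CPM per kb), both of the kinesin-3 group that moves vesicles and organelles. They stood 2.59 and 2.78 above their length class in log2. Kif21a, a kinesin-4 motor, followed at 61.1 CPM and 9.49 CPM per kb, 1.44 above its class. Kif3b, a motor subunit of the kinesin-2 that serves cilia, had 21.0 CPM and 3.72 CPM per kb, close to its class at -0.11. The other 9 kinesins were all below their class median. Of these, 6 were below percentile 10 of their class: Kif18a and Kif20b, both of which act in cell division, and Kif21b, Kif24, Kif26a and Kifc2. Their levels lay between 1.09 CPM (Kif24) and 2.47 CPM (Kif21b), at the low end of what the table lists, and Kif26a was the lowest per length at 0.166 CPM per kb.

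Myosins covered a still wider range, and 6 of 12 were above their length class. Of the class I myosins, which link membranes to actin, Myo1d had 1.87, Myo1f 1.09 and Myo1g 0.470 CPM per kb, the last pair being myosins of blood cells. Myo18a, an unconventional myosin, had 11.7 CPM per kb, and Myo6, the myosin that moves toward the minus end of actin filaments, had 8.01 CPM per kb. Myo5b, which carries recycling endosomes in epithelial cells, had 38.6 CPM and 5.81 CPM per kb, 0.56 above its class. Its relative Myo5a, known for vesicle and pigment transport in neurons and melanocytes, had 1.56 CPM and 0.134 CPM per kb, the lowest of all members, with a difference from its class of -4.37. The 2 members of class V thus differed widely.

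The subunits of cytoplasmic dynein, the main motor toward microtubule minus ends, lay close together, between 6.52 and 17.5 CPM per kb. Dync1h1, the heavy chain that holds the motor domain, was at 253 CPM and 17.5 CPM per kb, 2.97 above its length class. It was encoded by 77 exons and 14398 bases. Dync1i2, an intermediate chain that binds dynactin, had 42.7 CPM and 16.1 CPM per kb. The light intermediate chains Dync1li1 and Dync1li2, which bind cargo adaptors, had 7.94 and 6.52 CPM per kb. Dync1li1 was the only subunit below its class median, at -0.37.

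The linkers and scaffolds were mostly above their length class. Macf1, a plakin that joins actin filaments to microtubules, was at 228 CPM and 9.72 CPM per kb, 2.82 above its class, in an mRNA of 101 annotated exons. Plec, plectin, which ties intermediate filaments to other structures, had 87.5 CPM and 5.66 CPM per kb, 1.44 above. The actin crosslinker Flna had 62.2 CPM and 7.45 CPM per kb, 0.94 above. Actn1, an actinin that crosslinks actin, had 8.21 CPM per kb. Spnb3, a beta spectrin, had 110 CPM and 13.4 CPM per kb, 1.77 above its class. Spna1, the alpha spectrin of red blood cells, had 1.23 CPM and 0.147 CPM per kb, with a difference from its class of -4.71. Ank3, the ankyrin that anchors membrane proteins to spectrin, had 17.2 CPM and 1.71 CPM per kb, with a difference of -0.91.

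The 3 actin-related proteins listed were Actr8 at 13.6, Actr6 at 11.8 and Actr10 at 9.19 CPM per kb, each above its length class. Actr10 is a subunit of dynactin, the partner of dynein. Actr6 and Actr8 belong to nuclear chromatin remodelling complexes and are members by name, not as parts of the cytoskeleton.

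In gene structure the members had more exons and a longer coding sequence at the median, though tubulins and actins have few exons. The members had a median of 22 exons, against 9 in other listed mRNAs, and 37 of 50 had more exons than the median of their length class. The coding sequence had a median of 3186 bases, against 1377, and 43 of 50 were above their class. It made up a median of 72.8% of the mRNA, against 54.1%. The GC content was 52.7%, against 50.2%, with 34 of 50 above their class. Over the listed mRNAs, level and length had a Spearman rho of 0.02 in log2 mean CPM, but levels were not even across lengths. The median of the other mRNAs was 4.79 in the shortest class, 3.92 in class 10 and 5.01 in the longest class. In CPM per kb, where length is the divisor, rho was -0.38 over all listed mRNAs and -0.24 over the members.

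The partners of these proteins were taken from lists of further cytoskeleton genes. Of the Arp2/3 complex, which branches actin filaments, 5 of 9 genes were listed with a median of 26.1 CPM per kb, led by Arpc3 at 71.4, Arpc5 at 37.6 and Arpc5l at 26.1. All 5 were above their length class. Of proteins that turn over actin filaments, 10 of 13 were listed with a median of 18.8, led by Tmsb4x, which binds actin monomers, at 144, and by the severing proteins Dstn at 122 and Cfl1 at 115 CPM per kb. Of myosin II, the contractile myosin, 7 of 8 were listed. The light chains Myl6, Myl12b and Myl12a had 320.1, 44.0 and 21.9 CPM per kb, while the 3 listed heavy chains Myh14, Myh10 and Myh11 had 1.96, 1.07 and 0.707, and Myh9 was not listed. The remaining light chain, Myl9, which is known from smooth muscle, had 4.33 CPM per kb, with a difference from its class of -1.95. Of dynein light chains and dynactin, 8 of 12 were listed with a median of 11.3, led by Dynlrb1 at 67.8, Dynll1 at 12.9 and Dctn5 at 12.6. The dynein subunits among the members had a median of 12.0 CPM per kb. Against their length class, the median log2 difference was 1.12 for these subunits and 0.15 for the listed light chains and dynactin. Klc4 was the 1 kinesin light chain of 4 listed, at 21.9 CPM per kb.

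Of intermediate filament proteins, 4 of 7 were listed, led by Krt18, the keratin of simple epithelia, at 136 CPM per kb, with Vim at 12.0 and Lmnb2 at 3.50. Of microtubule-associated proteins, 4 of 11 were listed with a median of 3.13, and Clasp2, Stmn1 and Clasp1 had 4.77, 3.14 and 3.13 CPM per kb. Of proteins that link actin to membranes, 3 of 9 were listed. Rdx, radixin, the linker at bile canaliculi, had 316 CPM and 69.3 CPM per kb, 4.17 above its length class, with Vcl at 13.0 and Msn at 8.30 CPM per kb.

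The label of the tissue was checked against markers of its cells. Of 8 hepatocyte markers, 5 were listed (Trf, Apoa1, Fgb, Serpina1a and Tat) at 595 to 8801 CPM per kb, while Alb, Ttr and Cps1 were not. Of 6 Kupffer cell markers, 5 were listed at 5.15 to 74.8, and of 6 endothelial markers 5 were listed at 8.52 to 76.9 CPM per kb. All 6 stellate cell markers were listed, from Acta2 itself at 1.60 to Dcn at 98.3. None of 4 bile duct markers was listed. Of 5 skeletal muscle markers 1 was listed, Des, at 1.67 CPM per kb, which is also a stellate cell marker. Of 3 erythroid markers 1 was listed, Alas2, an enzyme of heme synthesis, at 19.1 CPM per kb, while Hba-a1 and Hbb-b1 were not. Since a gene that is not listed may still be expressed, these counts do not show that any cell type was absent. In whole liver, a low mRNA level in all cells and a level confined to few cells cannot be told apart, and the cells behind the levels of Myo1f, Myo1g, Spna1 or Acta2 were not tested.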

How the data were processed

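Liver RNA of 4 mice was depleted of rRNA and sequenced as stranded single-end reads of 50 bases. Per the study's methods, the authors removed rRNA reads, aligned the rest with Bowtie to 1 mRNA per gene, the longest RefSeq isoform from mm9, allowed 2 mismatches, and counted unique alignments. Genes above 1 CPM in at least 3 samples entered the edgeR comparison that the authors made between diets. The sources used here name no version of these tools. Deposited with the series is a table that holds the mRNA length and the authors' average log2 CPM over all libraries, which edgeR steadies with a small prior count. It also holds the log2 fold change, p-value and FDR of the authors' own diet comparison, which were not used. Its rows are ordered by that p-value, so a gene not listed may still be expressed, and the listed set is not a sample of the liver's mRNAs chosen by level. With no column of a single mouse, depth per mouse is unknown, replicates could not be compared, and the planned count tests between diets were not run.

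Log2 means were turned back into CPM and divided by length in kb. Each member was set against non-members in 20 classes of length rank. All 50 members and 6930 listed genes were matched to GENCODE vM1 (6768 by symbol, 162 by synonym), with Tubb4b annotated there as Tubb2c. For 47 members the nearest transcript was within 5% of the listed length, and for Ank3, Dync1li1 and Tuba1b it was not. Unique windows were searched among the protein-coding transcripts. The members and lists were chosen with earlier results of these data known. Named genes were all members of families of up to 4, otherwise the 4 highest and the lowest per kb, every mRNA over 10 kb and the 3 highest of each further list, and others were named after their values were seen. Values of some single members and the start of the alpha tubulin coding sequences are not reported here. All steps ran in Python 3.11.15 with pandas 2.3.3 for tables, numpy 2.4.6 and scipy 1.17.1 for statistics and matplotlib 3.10.9 for plots.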

Additional observations from a re-analysis of the deposited data

How the results depend on the processing

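Across 10 or 40 length classes, the 200 mRNAs nearest in length, a minimum of 5 CPM, leaving out Actr6 and Actr8, and, chosen after seeing the data, leaving out mRNAs unique over under 90% of windows, 25 to 29 members were above their class (28 of 50 as reported, 25 of 39 at the 5 CPM minimum, 26 of 48 without Actr6 and Actr8, 25 of 45 without the less unique mRNAs), and the median difference was 0.39 to 0.56 in log2. With no replicates, a family value was taken as moved beyond 1.5-fold. With a minimum of 5 CPM the family median was 3.72 CPM per kb in 7 kinesins, 5.67 in 9 myosins, 245 in 2 actins and 13.4 in 1 spectrin, since the low members were left out. Per 1000 unique windows, a divisor chosen after seeing the data, the tubulin median was 38.7 CPM. Without division by length the shares of the summed level were 14.3% for kinesins, 17.3% for myosins, 9.61% for dynein subunits, 12.0% for tubulins, 26.1% for actins, 3.14% for spectrins, 4.90% for filamins, 8.89% for plakins and 0.484% for ankyrins. Dividing by length minus 49 moved no family median. No paired analysis was possible because no column of a single mouse was used. The diet comparison, with its other tool, without a filter and without each mouse in turn, was not run for the same reason.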
